A study of Mus musculus with 6 samples.

Results

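Lung mesenchyme transcription and identity genes are genes that mark the fibroblasts and related connective cells of the lung, and 10 of them were taken by name from the 24972 gene symbols in the deposited table. They were *Tcf21*, *Tbx2*, *Tbx4*, *Tbx5*, *Twist1*, *Prrx1*, *Gli1*, *Meox2*, *Npnt* and *Inmt*, and all 10 had a row. RNA-Seq was performed on lung endothelial cells (iLECs) of C57BL/6 mice at postnatal day 7 (P7), with 3 control libraries labelled with genotype PRR (Atp6ap2)fl/Y and 3 *Atp6ap2* iECKO libraries labelled with genotype PRR (Atp6ap2)fl/Y; Cdh5-CreERT2+. The study's methods give a mixed CD1 and C57BL/6 background. Pups of both genotypes carried the floxed *Atp6ap2* allele and received 100 µg of tamoxifen on days 1 to 3. The recombinase is driven by the promoter of *Cdh5*, an endothelial adhesion gene, so recombination is directed to endothelial cells and not to fibroblasts. Cells were taken from digested lung with magnetic beads coated with a CD31 antibody, and no source used here says whether lungs were pooled. The question was how the levels of these mesenchymal transcripts in the CD31-selected cells differed between the genotypes.

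The mesenchyme of the lung surrounds the airways and vessels and holds alveolar fibroblasts, myofibroblasts, pericytes and smooth muscle cells. During development it receives hedgehog signals from the epithelium, which turn on *Gli1*, and returns growth factor signals such as *Fgf10* that drive branching. The identity of these cells is set by transcription factors of the basic helix-loop-helix, T-box and homeobox families. *Tcf21* and *Twist1* belong to the first family, *Tbx2*, *Tbx4* and *Tbx5* to the second, and *Prrx1* and *Meox2* to the third. *Gli1* encodes a zinc finger factor of the hedgehog pathway. *Npnt* encodes nephronectin, a matrix protein that binds an integrin with the chain made from *Itga8*. *Inmt* encodes an enzyme that methylates tryptamine and related amines and is abundant in lung.

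Promoter windows of the called genes are shown here, where available, as a description, and their part in the values below was not tested. RefSeq windows on GRCm38.p6 were found for 7 of the 10 genes, namely *Tcf21*, *Tbx4*, *Twist1*, *Prrx1*, *Meox2*, *Npnt* and *Inmt*. No window was available for *Tbx2* or for the called genes *Tbx5* and *Gli1*, so their promoters were not searched. Each run below is the 250 bases before the annotated start, 5′ to 3′ on the strand of the gene. Capitals mark every E-box (CANNTG), GC box (GGGCGG) and TATA box (TATAAA) on either strand.
Tcf21 (chr10:22820144-22820393, minus strand): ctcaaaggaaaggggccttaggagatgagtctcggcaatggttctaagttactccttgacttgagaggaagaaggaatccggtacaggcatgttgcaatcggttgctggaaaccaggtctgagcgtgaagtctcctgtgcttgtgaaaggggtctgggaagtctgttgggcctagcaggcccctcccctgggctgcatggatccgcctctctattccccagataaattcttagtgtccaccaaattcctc
Tbx4 (chr11:85896515-85896764, plus strand): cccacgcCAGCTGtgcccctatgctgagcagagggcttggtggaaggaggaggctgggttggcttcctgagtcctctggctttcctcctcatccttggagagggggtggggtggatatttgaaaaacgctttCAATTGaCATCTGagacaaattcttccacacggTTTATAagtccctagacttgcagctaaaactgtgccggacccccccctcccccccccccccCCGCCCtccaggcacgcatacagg
Prrx1 (chr1:163313651-163313900, minus strand): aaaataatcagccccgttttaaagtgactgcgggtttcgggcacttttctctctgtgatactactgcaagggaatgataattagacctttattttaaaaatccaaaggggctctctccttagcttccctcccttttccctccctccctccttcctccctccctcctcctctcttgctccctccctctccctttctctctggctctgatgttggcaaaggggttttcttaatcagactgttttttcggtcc
Meox2 (chr12:37108290-37108539, plus strand): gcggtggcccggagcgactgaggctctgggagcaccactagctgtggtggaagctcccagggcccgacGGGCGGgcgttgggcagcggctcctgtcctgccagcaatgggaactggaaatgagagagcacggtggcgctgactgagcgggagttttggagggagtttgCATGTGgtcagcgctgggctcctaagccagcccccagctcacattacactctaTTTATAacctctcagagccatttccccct
Npnt (chr3:132950292-132950541, minus strand): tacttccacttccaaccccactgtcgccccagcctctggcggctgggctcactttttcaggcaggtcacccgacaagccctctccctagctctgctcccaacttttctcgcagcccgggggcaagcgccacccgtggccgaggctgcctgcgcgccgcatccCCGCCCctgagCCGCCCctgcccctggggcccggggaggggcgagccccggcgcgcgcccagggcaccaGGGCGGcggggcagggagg

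No motif searched was found in all of these 5 windows. The window of *Tbx4* held 3 E-boxes, 1 GC box and 1 TATA box, that of *Meox2* held 1 of each, and that of *Npnt* held 3 GC boxes. In the windows of *Tcf21* and *Prrx1* none of these letters occurred, nor did the T-box half-site GGTGTG or the GLI core GACCACC in any of the 5. Over all 32851 promoter windows, CANNTG occurred in 66.2%, GGGCGG in 32.7%, TATAAA in 12.4%, GGTGTG in 16.3% and GACCACC in 2.34%. CAGCTG and CATATG, which are forms of the E-box, occurred in 13.0% and 3.46%, and CAGCTG was found once in the window of *Tbx4*. GC content ranged from 47.6% for *Prrx1* and 52.4% for *Tcf21* to 74% for *Npnt*, against a median of 52.4% over all windows. The windows of *Tcf21*, *Tbx4* and *Prrx1* precede RefSeq starts that lie inside the spans annotated for these genes by GENCODE. Each of these genes thus has more than 1 annotated start, and its window lies at least partly inside its span. *Npnt* has a second RefSeq window, which held 2 E-boxes and is not shown.

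The table gives a normalized count for each gene and library, an estimated count that the authors had already scaled between libraries. Totals were between 26243878 and 28725799 per library. *Atp6ap2* itself had normalized counts of 7490, 5815 and 5681 in the control libraries and of 4220, 2336 and 1982 in the *Atp6ap2* iECKO libraries, replicates 1 to 3 in that order, a log2 fold change of -1.22 (adjusted *P* = 0.0306 from limma). Endothelial identity was checked on 18 marker genes, all of which were detected, with *Cdh5* at 92569 ± 17220 in control and 96010 ± 7186 in *Atp6ap2* iECKO libraries (SD, n = 3 each). All samples are labelled fl/Y, yet *Xist*, which is transcribed from an inactive X chromosome, was between 37704 and 47487 in 4 libraries. According to the paper, neonates of both sexes were used, and its control and *Atp6ap2* iECKO groups include females of genotype fl/fl. The paper does not give the sex of each library. *Xist* was at 31.7 in the third control library and at 19.3 in the second *Atp6ap2* iECKO library. None of the 10 genes lies on chromosome X. Values with the *Xist* status taken into account are given below.

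Of the 10 lung mesenchyme genes, 7 were lower in *Atp6ap2* iECKO libraries at an adjusted *P* value below 0.05, 0 were higher and 3 did not pass the test. Over the 14456 genes tested, 4.97% were called lower and 3.28% higher, 8.25% in either direction. Log2 values, taken after adding 1, were tested in limma with Benjamini-Hochberg adjustment over all genes tested, and a gene was tested where 3 or more libraries reached 10. All 10 genes met this filter, 9 of them in all 6 libraries and *Twist1* in 4. The same 7 genes had control and *Atp6ap2* iECKO libraries that did not overlap, against 15.0% of all genes tested that were lower without overlap. Median log2 fold change was -1.41 over the 10 genes and 0.00 over all genes tested. In *Atp6ap2* iECKO libraries the mean of the 7 called genes was between 30.0% and 41.2% of the control mean. Their fold changes lay close together, from -1.71 for *Prrx1* to -1.33 for *Gli1* on the log2 scale. In bulk samples such as these, fewer cells of a type and less RNA per cell cannot be told apart.

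**Figure D1:**
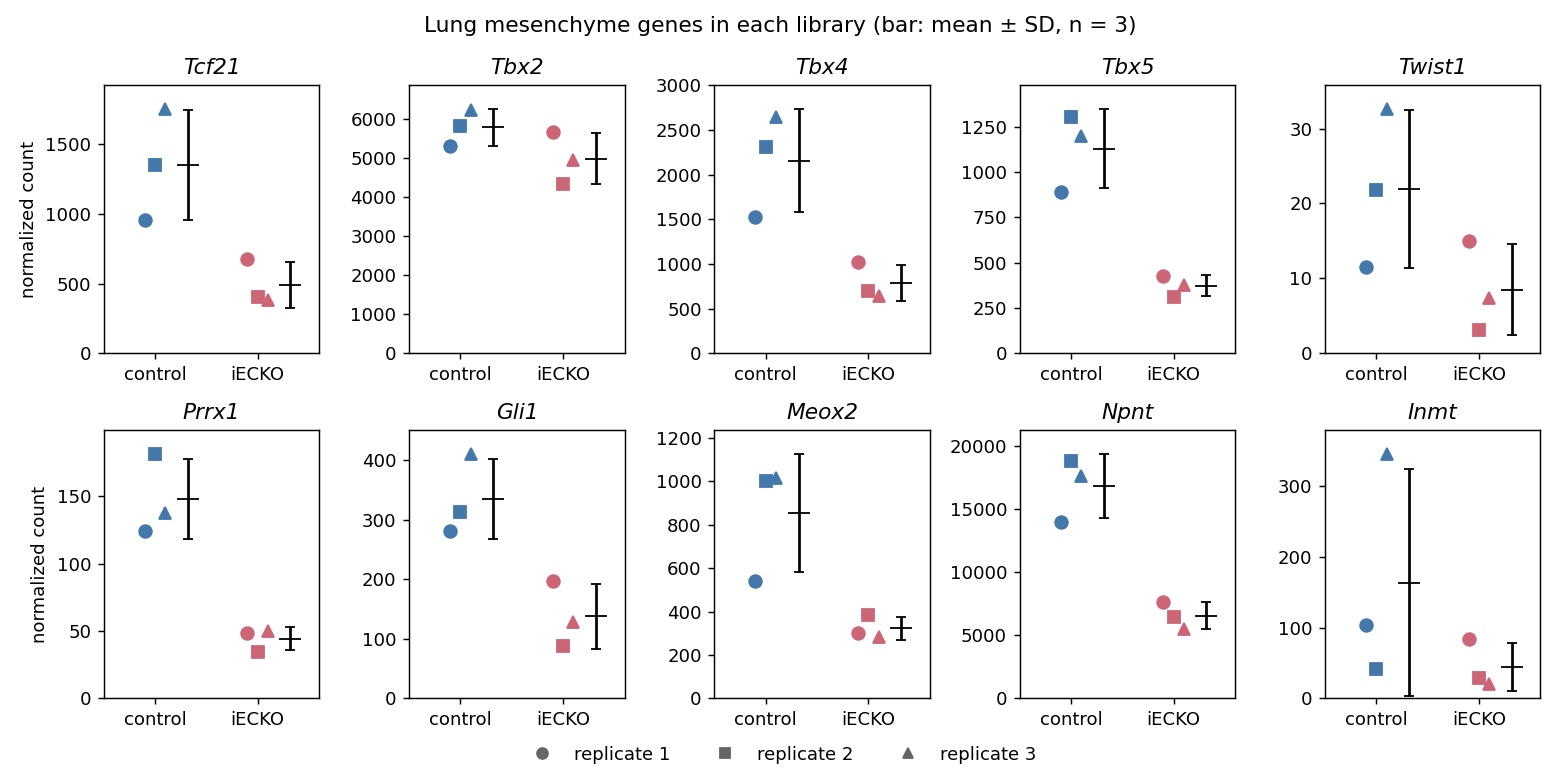
Normalized count (linear axis) of each of the 10 lung mesenchyme genes in the 3 control (blue) and 3 *Atp6ap2* iECKO (red) libraries, with marker shape for the replicate and a bar for the mean ± SD. The genotypes do not overlap for 7 genes, whereas they overlap for *Tbx2*, *Twist1* and *Inmt*.

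*Tcf21* encodes a basic helix-loop-helix factor of lung fibroblast progenitors and lies on chromosome 10 of GRCm38 from 22817281 to 22820174 (ENSMUSG00000045680.8). Its normalized counts were 956, 1349 and 1752 in control replicates 1 to 3 and 680, 408 and 381 in *Atp6ap2* iECKO replicates 1 to 3. Every *Atp6ap2* iECKO library was below every control library, and replicate 1 of each genotype came closest to the other genotype. For *Tcf21* the log2 fold change was -1.47 ± 0.27 (SE), with an adjusted *P* value of 0.0212 in limma. The span of an antisense gene, *Gm10824*, covers the whole of *Tcf21*. As the TruSeq v2 kit does not keep strand, reads of the pair cannot be told apart where their exons overlap. Whether the exons overlap was not examined.

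*Twist1*, the other basic helix-loop-helix gene, has roles in mesenchymal fate and lies on chromosome 12 from 33957671 to 33959829 (ENSMUSG00000035799.6). It was low, with normalized counts of 11.5, 21.9 and 32.6 in control libraries and 15.0, 3.07 and 7.36 in *Atp6ap2* iECKO libraries. *Atp6ap2* iECKO replicate 1 lay above control replicate 1, so the genotypes overlapped. For *Twist1* the log2 fold change was -1.38 with a standard error of 0.64 (adjusted *P* = 0.236 from limma). At a pseudocount of 10 in place of 1, its log2 fold change was -0.79.

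The T-box genes had unequal fold changes. *Tbx4* and *Tbx5*, which act in the early lung mesenchyme upstream of *Fgf10*, were lower, whereas *Tbx2*, a repressor that sustains growth of the same tissue, did not pass the test. *Tbx4*, on chromosome 11 from 85886422 to 85916097 (ENSMUSG00000000094.12), had normalized counts of 1520, 2307 and 2638 in control libraries and 1022, 700.3 and 638 in *Atp6ap2* iECKO libraries. All *Atp6ap2* iECKO libraries lay below the lowest control library, replicate 1. Its log2 fold change was -1.45 ± 0.24 (SE), with an adjusted *P* value of 0.0145 in limma. *Tbx5*, on chromosome 5 from 119832668 to 119885219 (ENSMUSG00000018263.11), had 887, 1302 and 1197 in control libraries and 427, 310.5 and 378 in *Atp6ap2* iECKO libraries. The highest *Atp6ap2* iECKO library was below the lowest control library. The log2 fold change of *Tbx5* was -1.59 ± 0.18 (SE), with an adjusted *P* value of 0.00831 in limma.

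*Tbx2* lies on the same strand of chromosome 11 as *Tbx4*, from 85832551 to 85841948 (ENSMUSG00000000093.6), and 44473 bases separate the annotated genes. Its normalized counts were 5302, 5827 and 6230 in control libraries and 5660, 4346 and 4953 in *Atp6ap2* iECKO libraries. *Atp6ap2* iECKO replicate 1 was above control replicate 1, so the genotypes overlapped. For *Tbx2* the log2 fold change was -0.22 ± 0.11 (SE), with an adjusted *P* value of 0.287 in limma. *Tbx3*, the close paralog of *Tbx2* and the neighbour of *Tbx5* on chromosome 5, was on a list of further mesenchymal factors and had a log2 fold change of -0.11 (adjusted *P* = 0.763 from limma).

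Ratios within a library set these paralogs against each other without regard to scaling between libraries. Whether the genes of a pair came from the same cells was not tested. The ratio of *Tbx2* to *Tbx4* was 3.49, 2.52 and 2.36 in control libraries and 5.54, 6.20 and 7.76 in *Atp6ap2* iECKO libraries. On the log2 scale the difference was 1.23 without overlap. A two-sided exact permutation test gave *P* = 0.1, which is the lowest value possible with 3 against 3, and 0.15 after adjustment over 3 pairs. The ratio of *Tbx2* to *Tbx5* was 5.97, 4.47 and 5.20 in control libraries and 13.2, 14.0 and 13.1 in *Atp6ap2* iECKO libraries, a log2 difference of 1.37 without overlap (exact permutation test, *P* = 0.1, adjusted 0.15). The ratio of *Tbx4* to *Tbx5* overlapped between genotypes, with a log2 difference of 0.15 (exact permutation test, *P* = 0.5, adjusted 0.5). Its values were 1.71, 1.77 and 2.20 in control libraries and 2.39, 2.25 and 1.69 in *Atp6ap2* iECKO libraries. A further pair chosen after the values were seen, *Tbx3* to *Tbx5*, had a ratio of 7.98, 4.52 and 3.69 in control libraries and 14.7, 14.4 and 13.6 in *Atp6ap2* iECKO libraries.

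*Prrx1*, a homeobox gene of mesenchymal progenitors, lies on chromosome 1 from 163245119 to 163313710 (ENSMUSG00000026586.16). Its normalized counts were 125, 181 and 138 in control libraries and 48.3, 34.5 and 50.4 in *Atp6ap2* iECKO libraries. The genotypes were far apart for a gene of this level, with the highest *Atp6ap2* iECKO library well below the lowest control library. For *Prrx1* the log2 fold change was -1.71 ± 0.26 (SE), with an adjusted *P* value of 0.0125 in limma, the largest fall among the called genes. The span of *Prrx1* also holds *Gm20471*, *Gm26523* and *Gm37644*, whose reads may not be separable from its own. *Meox2*, a homeobox gene that endothelial and smooth muscle cells can also express, lies on chromosome 12 from 37108540 to 37179534 (ENSMUSG00000036144.6). It had 542, 1003 and 1017 in control libraries and 301, 383 and 283 in *Atp6ap2* iECKO libraries. Control replicate 1 lay apart from the other control libraries but above all *Atp6ap2* iECKO libraries. The log2 fold change of *Meox2* was -1.36 ± 0.25 (SE), with an adjusted *P* value of 0.0212 in limma. The span of *Gm48617*, annotated on the same strand, overlaps that of *Meox2* by 38610 bases.

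*Gli1*, the transcription factor whose transcription reports hedgehog signalling, lies on chromosome 10 from 127329882 to 127341974 (ENSMUSG00000025407.7). Its normalized counts were 280.3, 313 and 410 in control libraries and 197, 88.6 and 128 in *Atp6ap2* iECKO libraries. All *Atp6ap2* iECKO libraries were below all control libraries, and replicate 1 was again the highest of its genotype. For *Gli1* the log2 fold change was -1.33 ± 0.30 (SE), with an adjusted *P* value of 0.0354 in limma. The end of *Gli1* overlaps that of *Arhgap9* on the other strand by 62 bases, and the span of the antisense gene *Gm47200* overlaps *Gli1* by 9584 bases. Reads of these genes cannot be told apart where their exons overlap, which was not examined. *Arhgap9* had 117 ± 13.9 (SD, n = 3) in control and 138 ± 58.2 (SD, n = 3) in *Atp6ap2* iECKO libraries.

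*Npnt* lies on chromosome 3 from 132881745 to 132950291 (ENSMUSG00000040998.18) and encodes a matrix protein. Its normalized counts were 13992, 18834 and 17680 in control libraries and 7670, 6500 and 5524 in *Atp6ap2* iECKO libraries. Again every *Atp6ap2* iECKO library was below every control library. The log2 fold change of *Npnt* was -1.36 ± 0.15 (SE), with an adjusted *P* value of 0.00831 in limma. *Npnt* is also made by lung epithelium, and of 14 epithelial markers, all tested, 0 were called lower, with a median log2 fold change of -0.15. Their summed normalized counts were between 27471 and 74389 in control and between 33915 and 41147 in *Atp6ap2* iECKO libraries.

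*Inmt*, on chromosome 6 from 55170626 to 55175043 (ENSMUSG00000003477.5), was low and variable, with a control SD about as large as the control mean (164 ± 160, n = 3). Its normalized counts were 105, 42.2 and 345 in control libraries and 83.5, 28.8 and 20.5 in *Atp6ap2* iECKO libraries. Control replicate 3 was far above the rest, and control replicate 2 fell within the range of the *Atp6ap2* iECKO libraries. For *Inmt* the log2 fold change was -1.62 with a standard error of 0.78 (adjusted *P* = 0.254 from limma). Leaving out that highest control library gave -0.84 (adjusted *P* = 0.515 from limma).

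**Figure D2:**
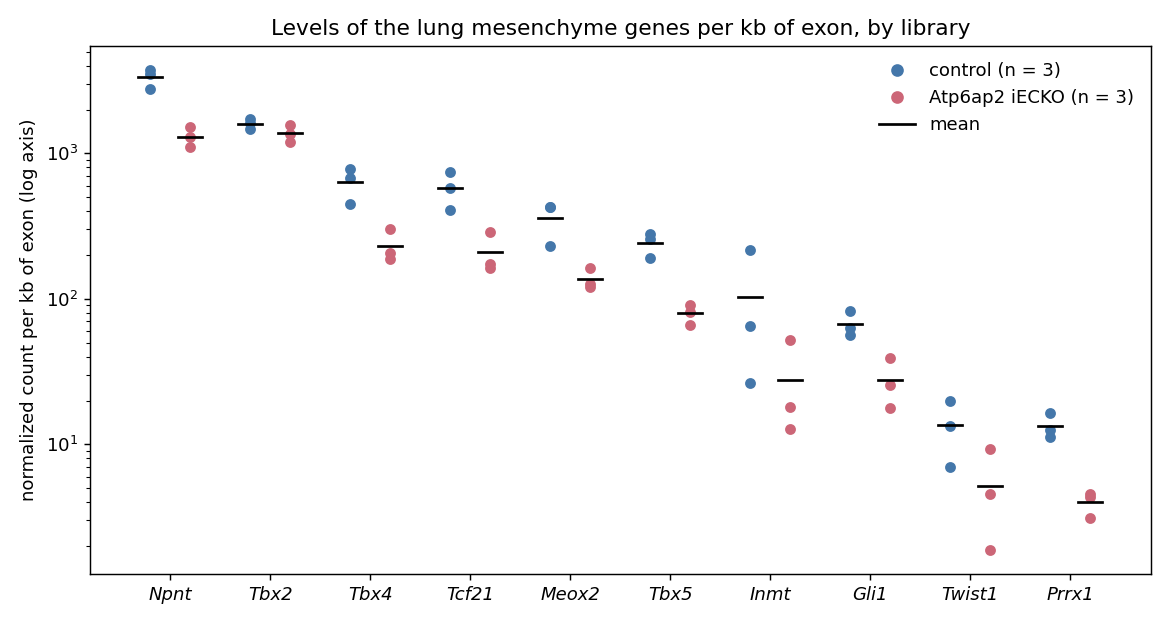
Normalized count per kb of exon (log axis) of each gene in the 3 control (blue) and 3 *Atp6ap2* iECKO (red) libraries, with the mean as a line, ordered by the control mean. *Npnt* is first in controls at 3350 per kb, and in *Atp6ap2* iECKO libraries it overlaps with *Tbx2*.

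Levels were compared between genes only per kb of annotated exon. In control libraries *Npnt* stood first at 3350 ± 503 per kb (SD, n = 3), followed by *Tbx2* at 1596 ± 128 per kb (SD, n = 3), and these neighbours did not overlap. *Tbx4* (634 ± 169 per kb), *Tcf21* (576 ± 169 per kb), *Meox2* (362 ± 114 per kb), *Tbx5* (241 ± 46.2 per kb), *Inmt* (102 ± 99.9 per kb) and *Gli1* (66.9 ± 13.4 per kb) came next. Each neighbour in that run overlapped with the next, so the order of adjacent genes did not exceed the spread. Genes further apart in the run could be separate. The lowest control library of *Tbx4* (447 per kb) was above the highest of *Meox2* (431 per kb) and of *Tbx5* (279 per kb). *Twist1* (13.5 ± 6.48 per kb) and *Prrx1* (13.4 ± 2.67 per kb) were last, below *Gli1* without overlap and overlapping with each other. The exon length of *Prrx1* is a union of 11066 bases over all its annotated transcripts, which lowers its value per kb. In *Atp6ap2* iECKO libraries *Tbx2* (1375 ± 181 per kb) and *Npnt* (1306 ± 214 per kb) overlapped, and the other genes kept their order. *Meox2* and *Tbx5* then did not overlap, nor did *Tbx5* and *Inmt*.

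Within each genotype, libraries deviated in the same direction for most genes. Control replicate 1 was the lowest control library for 9 of the 10 genes, with *Inmt* as the exception. *Atp6ap2* iECKO replicate 1 was the highest of its genotype for 8 of the 10 genes, with *Prrx1* and *Meox2* as the exceptions. Median log2 deviations from the control mean were -0.29, 0.12 and 0.31 in control replicates 1 to 3 and -0.99, -1.76 and -1.54 in *Atp6ap2* iECKO replicates 1 to 3. *Atp6ap2* iECKO replicate 1 also kept the most *Atp6ap2*, and its part in these values was not tested.

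When libraries were compared within a class of *Xist* status, all 10 genes were lower in *Atp6ap2* iECKO libraries in both classes. Median log2 fold change over the 10 genes was -1.18 in the 2 control and 2 *Atp6ap2* iECKO libraries with *Xist* and -1.96 between the 2 libraries without it, a pair that allows no test. With the presence of *Xist* as a covariate in limma, 6 of the 10 genes were called lower, against 3.59% of all genes tested, and *Gli1* no longer passed (adjusted *P* = 0.0515). In the 4 libraries with *Xist* alone, limma called 0 of the 10 genes, and 0.0% of all genes tested were called lower. At an unadjusted *P* value below 0.05, 7 of the 10 genes were lower there, and 2196 genes in all differed in either direction.

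Other transcription factors of mesenchymal cells were taken from a list of 22 genes, of which 16 passed the filter. Of these, 7 were called lower, 0 higher and 9 did not pass, with a median log2 fold change of -0.66. Among these, *Twist2*, the paralog of *Twist1*, reached a normalized count of 10 in the 3 control libraries only (37.6 ± 12.6 against 6.33 ± 2.72, SD, n = 3 each), so it entered the test through the genotype where it was higher. *Foxf2*, a forkhead factor of mesenchyme and pericytes, fell from 951 ± 277 to 303 ± 31.5 (SD, n = 3 each), a log2 fold change of -1.60 (adjusted *P* = 0.0104 from limma). *Gli2* (-1.41), *Snai1* (-0.98), *Snai2* (-0.92), *Zeb2* (-0.86) and *Ebf1* (-0.74) were also lower. The count of 7 became 2 without the second or the third library of either genotype, 4 without the first *Atp6ap2* iECKO library, 4 with equal library totals and 3 with endothelial marker scaling. *Zeb1* (0.08), *Meox1* (0.02), *Gli3* (0.43), *Hic1* (-0.30), *Prrx2* (-0.74), *Osr1* (-0.58), *Zfpm2* (-0.40) and *Foxp2* (-0.41) did not pass. *Osr2*, *Tbx15*, *Tbx18*, *Foxd1*, *Wt1* and *Ebf2* were too low to be tested.

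Around *Gli1*, a list of 15 hedgehog genes was examined, of which 14 were tested, 3 were called lower, 0 were higher and 11 did not pass. Their median log2 fold change was -0.28. The count of 3 became 1 without the third control library or without the second or the third *Atp6ap2* iECKO library. The ligands *Shh* (-0.35) and *Dhh* (0.20), the receptor *Ptch1* (-0.28), the signal transducer *Smo* (-0.20) and the inhibitor *Sufu* (0.03) did not pass. *Ptch1*, itself a hedgehog target, had 5230 ± 543 in control and 4302 ± 451 in *Atp6ap2* iECKO libraries (SD, n = 3 each, adjusted *P* = 0.158 from limma). *Hhip*, a decoy receptor and hedgehog target of mesenchymal cells, fell from 1084 ± 145 to 512 ± 132 (SD, n = 3 each), a log2 fold change of -1.10 (adjusted *P* = 0.0162 from limma). *Hhip* also stands on the myofibroblast list and *Itga8* on that of alveolar fibroblasts. *Gli2* and *Foxf2*, which are also on the list of transcription factors, were the other hedgehog genes called. The co-receptors *Gas1* (-1.10), *Boc* (-0.77) and *Cdon* (0.58), as well as *Gli3* and *Foxf1* (-0.27), did not pass.

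Among genes around *Npnt*, 6 were tested and 2 were called lower, with a median log2 fold change of -0.17. *Itga8*, which encodes the alpha chain of the nephronectin receptor, fell from 5385 ± 1433 to 1702 ± 228 (SD, n = 3 each), a log2 fold change of -1.63 (adjusted *P* = 0.00848 from limma). *Frem1*, a matrix protein of the basement membrane zone, fell by 1.62 on the log2 scale (adjusted *P* = 0.0123 from limma). *Itgb1*, the partner chain of *Itga8* that most cells express, had a log2 fold change of 0.06 (adjusted *P* = 0.805 from limma). The count of 2 became 1 without the third *Atp6ap2* iECKO library. *Egfl6* (-0.02), *Fras1* (-0.33) and *Frem2* (0.79) did not pass. Of 6 methyltransferases of small molecules around *Inmt*, 4 were tested and limma called 0, with 1 at an unadjusted *P* value below 0.05, and the median log2 fold change was -0.66.

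**Figure D3:**
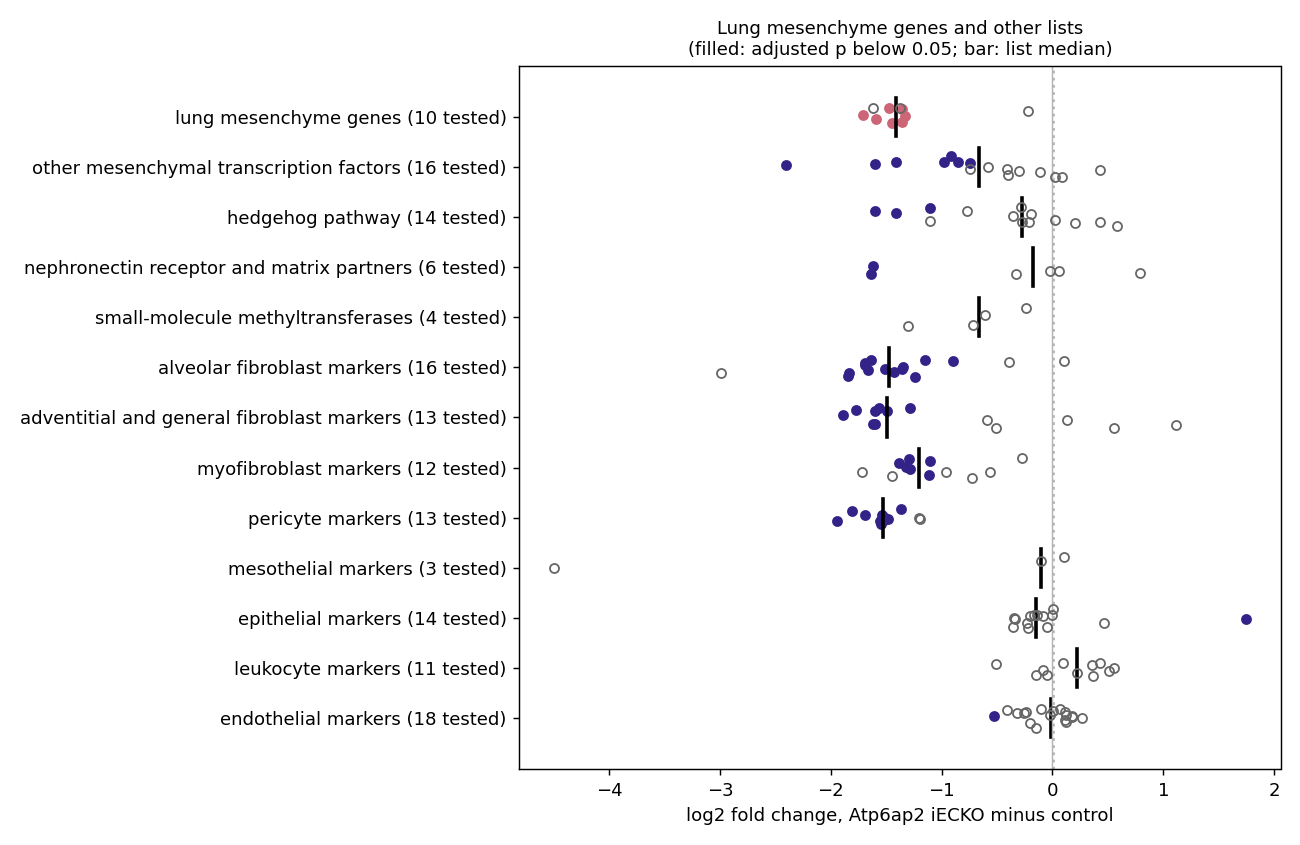
Log2 fold change (*Atp6ap2* iECKO minus control) of the tested genes of each list, filled where the adjusted *P* value was below 0.05, with the list median as a bar, a line at no change and a dotted line at the median of all genes tested. The 10 lung mesenchyme genes have a median of -1.41, near those of the fibroblast and pericyte lists, whereas the endothelial median is -0.01 and *Tbx2* stands at -0.22.

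Marker lists of cell types were read in the same libraries. Of 16 alveolar fibroblast markers, all tested, 13 were called lower and 0 higher, with a median log2 fold change of -1.47. Their summed normalized counts were between 109007 and 129194 in control and between 61653 and 79140 in *Atp6ap2* iECKO libraries. A large share of these sums was *Mcam*, which vessel cells also express and which did not pass (37144 ± 5013 against 39801 ± 3229, SD, n = 3 each). The count of 13 became 5 without the third control library, 8 without the second and 6 without the third *Atp6ap2* iECKO library. *Pdgfra*, a growth factor receptor of these fibroblasts, fell by 1.35 on the log2 scale, *Fgf10* by 1.51 and *Wnt2* by 1.69. Of 14 adventitial and general fibroblast markers 13 were tested and 8 were called lower, with a median of -1.50 and sums between 52746 and 82999 in control and between 21325 and 28660 in *Atp6ap2* iECKO libraries. The collagen gene *Col1a1* (-1.62) was among those called, while *Pi16* (1.12) and *Mfap5* (0.55), which mark adventitial fibroblasts, did not pass. The count of 8 became 5 without the second or the third library of either genotype. Of 12 myofibroblast markers, all tested, 6 were called lower, with a median of -1.20 and sums between 10827 and 19090 in control and between 6984 and 7437 in *Atp6ap2* iECKO libraries. This count of 6 became 0 without the third control library or without the second or the third *Atp6ap2* iECKO library, 2 without the second control library and 0 without limma's mean-variance trend. In these 4 fits with 0 calls, 9 or 10 of the 12 were lower at an unadjusted *P* value below 0.05. Between 2442 and 3240 genes in all differed in either direction at that value in these fits. Of 13 pericyte markers, all tested, 11 were called lower, with a median of -1.53 and sums between 22029 and 31043 in control and between 8313 and 11516 in *Atp6ap2* iECKO libraries. *Rgs5* (-1.94) and the growth factor receptor gene *Pdgfrb* (-1.54) were among those called, and leaving out a library left between 9 and 11. Against these, 719 of the 14456 genes tested were called lower. No marker of these lists was at 0 in all 6 libraries, and their part in the fall of the 10 genes was not tested.

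The remaining lists had medians between -0.15 and 0.22. Of 18 endothelial markers, 1 was called lower, the receptor gene *Tek* (-0.53), which passed in only 1 of the 6 fits that left out a library, and the median log2 fold change was -0.01, with sums between 378773 and 492075 in control and between 386057 and 449416 in *Atp6ap2* iECKO libraries. Of 12 leukocyte markers 11 were tested and limma called 0, also 0 at an unadjusted *P* value below 0.05, with a median of 0.22 and sums between 7113 and 12197 in control and between 5742 and 15478 in *Atp6ap2* iECKO libraries. Without the second *Atp6ap2* iECKO library, 6 of the 11 were higher at an unadjusted *P* value below 0.05 in limma. That library was the lowest of its genotype for each of these 11 markers. In the fit without it, 2646 genes in all differed in either direction at that *P* value. In the 4 libraries with *Xist*, 5 of the 11 leukocyte markers were higher at that value. Of the epithelial markers 1 was called higher, *Scgb1a1* of airway club cells, with a log2 fold change of 1.75. *Sftpc*, the epithelial marker with the highest mean, had 15632, 13596 and 39068 in control replicates 1 to 3. Without the third control library, 7 of the 14 epithelial markers were higher at an unadjusted *P* value below 0.05 in limma. In that fit 3056 genes in all differed in either direction. Of 9 mesothelial markers 8 were in the table and 3 were tested, of which limma called 0, with 1 at an unadjusted *P* value below 0.05. Their sums were between 364 and 1438 in control and between 541 and 565.0 in *Atp6ap2* iECKO libraries.

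**Figure D4:**
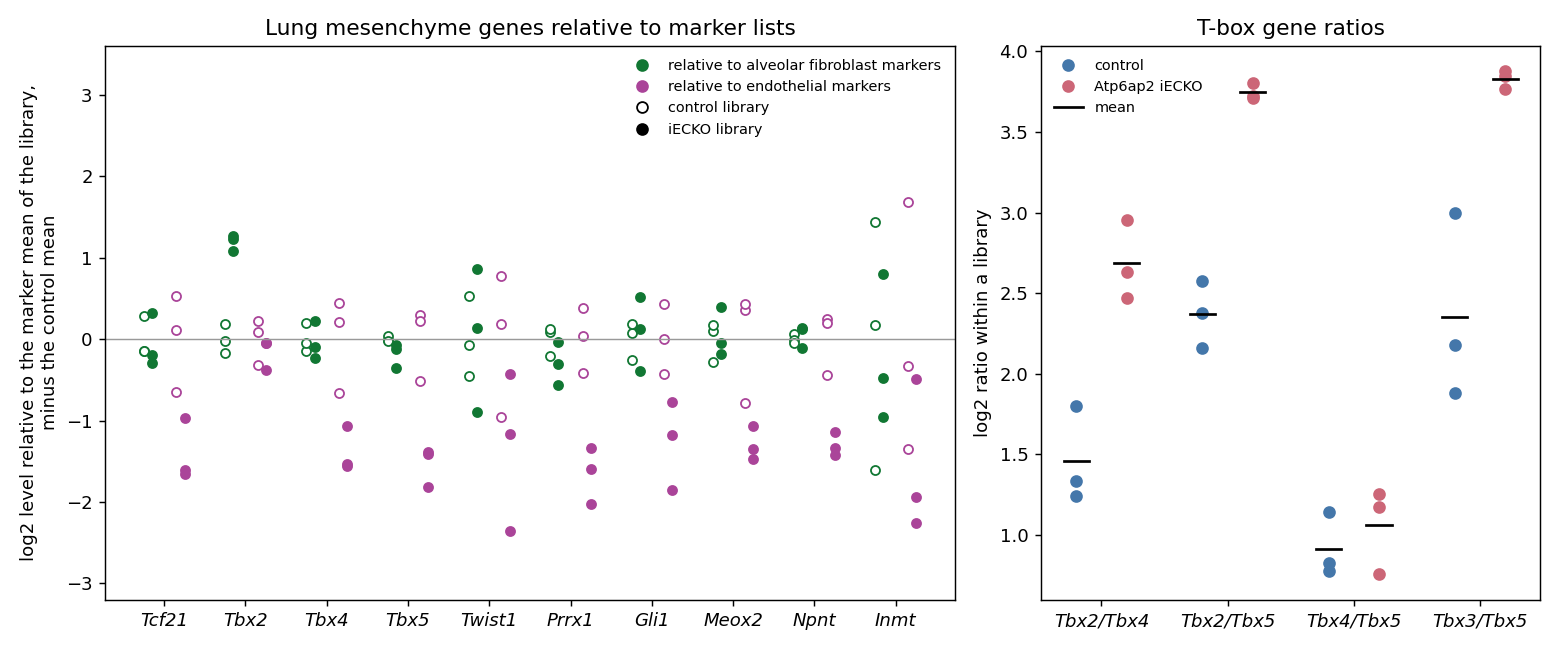
Left, log2 level of each gene minus the mean log2 level of the alveolar fibroblast (green) or endothelial (purple) markers of the same library, centred on the control mean, for control (open) and *Atp6ap2* iECKO (filled) libraries. Right, log2 ratio of T-box genes within each control (blue) and *Atp6ap2* iECKO (red) library, with the mean as a line, where the ratio of *Tbx2* to *Tbx4* does not overlap between genotypes.

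The genes were also set against the marker means of their own library, a comparison added after the values were seen. Relative to the mean log2 level of 16 alveolar fibroblast markers, the difference between genotypes was -0.06 for *Tcf21*, -0.04 for *Tbx4*, 0.08 for *Gli1*, 0.05 for *Meox2*, 0.05 for *Npnt* and 0.03 for *Twist1*. Libraries of the genotypes overlapped for each of these genes. It was -0.30 for *Prrx1* and -0.21 for *Inmt*, also with overlap, and -0.18 for *Tbx5*, whose libraries did not overlap. *Tbx2* differed by 1.19 relative to these markers, from 1.56 ± 0.18 in control to 2.75 ± 0.10 in *Atp6ap2* iECKO libraries (SD, n = 3 each), without overlap. A two-sided exact permutation test gave *P* = 0.1 for *Tbx2* and *Tbx5*, and 0.5 after adjustment over the 10 genes. Relative to 13 pericyte markers, *Tbx2* differed by 1.31 and *Npnt* by 0.17, both without overlap, and the other 8 genes overlapped. Relative to 18 endothelial markers, the 7 called genes stayed lower without overlap, with log2 differences from -1.65 for *Prrx1* to -1.27 for *Gli1* (exact permutation test, *P* = 0.1 each, adjusted 0.143). *Tbx2* differed by -0.16 relative to endothelial markers, with overlap.

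Among 11313 other genes with a mean of at least 100, those most like the mean profile of the 10 genes over the 6 libraries were sought, as a description. The 8 genes with the highest Pearson's r were *Akap7* (0.998), *Mapk8ip1* (0.998), *Chpf* (0.997), *Rasl12* (0.996), *Cryab* (0.996), *Wdsub1* (0.993), *Aspn* (0.993) and *Col16a1* (0.993). The points are 3 control and 3 *Atp6ap2* iECKO libraries, so a difference between genotypes enters these values. *Rasl12* had 299, 478 and 538 in control libraries and 179, 99.7 and 106 in *Atp6ap2* iECKO libraries. Each gene's own likeness to the mean of the other 9 was highest for *Tcf21* (r = 0.993) and *Tbx4* (0.988) and lowest for *Inmt* (0.719). That of *Tbx2* was 0.868.

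The number of calls depended on which libraries were included. *Npnt*, *Tbx5* and *Prrx1* passed in each of the 6 fits that left out a library, with adjusted *P* values of at most 0.0411, 0.0411 and 0.0485 from limma. *Tbx4* passed in 3, *Meox2* in 3, *Tcf21* in 2 and *Gli1* in 1 of these fits, with adjusted *P* values of up to 0.0596, 0.0829, 0.0803 and 0.118 in the others. The number of called genes was 3 without the third control library and 3 without the third *Atp6ap2* iECKO library. It was 4 without the second library of either genotype, 6 without the first control library and 7 without the first *Atp6ap2* iECKO library. With the replicate number as a block it was 7, against 5.8% of all genes. Called shares of all genes are not given for the fits that left out a library. In limma at an unadjusted *P* value below 0.05, 7 of the 10 genes were lower without the third control library. In that fit 3056 genes in all differed in either direction. Without the third *Atp6ap2* iECKO library, 7 of the 10 genes were lower at that value, and 2442 genes in all differed.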

How the data were processed

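iLECs of 3 control and 3 *Atp6ap2* iECKO samples were profiled by RNA-Seq with 1 library each. The authors aligned reads to mm10 in BaseSpace. The submitters' processing notes name version 2.0.1 of the alignment tool and version 1.0.1 of the differential expression tool. The deposited values are a signal, estimated counts that the authors had scaled between libraries. The labels call them raw counts, but 0% of the values above 0 are exactly whole and their median ratio to the geometric mean was 1.00 in every library. Of the low values, between 33.5% and 54.8% were within 0.02 of a whole multiple of the smallest common step. Taking that step as 1 read would give relative depths of 1.02, 1.00 and 1.04 in control replicates 1 to 3. The same reading gives 1.25, 1.55 and 1.26 in *Atp6ap2* iECKO replicates 1 to 3, each above every control. Its bearing on low genes was not tested. Reads were not recovered, so depth itself is unknown. Errors are therefore SDs from 3 libraries a genotype and standard errors from limma. The variance behind each standard error is moderated over all genes tested. Of the symbols, 24490 matched GENCODE M21 on GRCm38.

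Log2 of the value plus 1 was tested on genes with at least 10 in at least 3 libraries. The 6 libraries entered without covariates, and variances were moderated towards a trend on mean level (limma 3.58.1, R 4.3.3). The test was tried on simulated data. Alternatives were other pseudocounts, filters, scalings, thresholds, a variance model without trend, the replicate number as a block, *Xist* presence as a covariate and each library left out. All 10 genes and the lists were chosen with earlier results of these data known. Named were all 10 genes, the called genes of the pathway and transcription factor lists, some defining markers and the 8 genes with the most similar profile. The naming rule also covered the other called markers, which are given by count. Genes of pathway lists that did not pass were added after their values were seen, as were *Pi16*, *Mfap5* and *Mcam*, and some genes of these lists are not reported here. Motifs were sought on both strands. Figures were drawn with matplotlib 3.10.9.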

Additional observations from a re-analysis of the deposited data

How the results depend on the processing

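All 169 fold changes of the 10 genes under the alternatives kept their direction, and 141 also kept their side of the threshold. The 7 genes called lower became 3 without limma's mean-variance trend, 2 at an adjusted *P* value below 0.01, and 0 in the 4 libraries with *Xist*, an alternative chosen after seeing the data that leaves 2 samples against 2. Called shares of all genes are not given for the fit without the trend or for the threshold of 0.01. Each replicate left out in turn gave between 3 and 7. Without the trend, 7 of the 10 genes were lower at an unadjusted *P* value below 0.05 in limma, and 3240 genes in all differed. No gene was called higher under any alternative. Of 92 tested genes on the pathway, mesenchymal and mesothelial lists, each counted once, 46 were called lower. This number became 25 without the trend, 17 at 0.01 and 0 in the libraries with *Xist*, and between 22 and 47 with each replicate left out. Libraries share replicate numbers, but the deviations of same-numbered libraries correlated by 0.25, 0.11 and 0.08, and 5 of 6 samples correlated best with their own number, a hint from the data and not from the design. With a replicate block, 7 genes were called lower, against 5.8% of all genes tested, and 51 on the lists. The endothelial marker scaling left 6 called genes, *Gli1* being the one lost (adjusted *P* = 0.0548 from limma), while the pseudocounts, filters, and other scalings left 7. The T-box ratios kept their direction with each replicate left out, with log2 differences between 1.09 and 1.40 for *Tbx2* to *Tbx4*, 1.27 and 1.48 for *Tbx2* to *Tbx5*, and 0.05 and 0.30 for *Tbx4* to *Tbx5*. With unknown read numbers, changes of genes as low as *Twist1* could not be resolved.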
